A study of Homo sapiens with 4 samples.

Results

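Autophagy is the route by which a cell wraps part of its own content in a double membrane, the autophagosome, and delivers it to the lysosome for breakdown. Its proteins act in a known order: the ULK1 and beclin 1 complexes start the process, ATG9, ATG2 and WIPI proteins supply and expand the membrane, the ATG conjugation enzymes attach ATG8 proteins (the LC3 and GABARAP families) to it, cargo receptors bind those ATG8 proteins, and fusion factors join the finished vesicle to the lysosome. The lysosome is kept acid by a proton pump, the V-ATPase, and is filled with hydrolases. TFEB, TFE3 and MITF are related transcription factors that bind a promoter element called CLEAR, built around an E-box, in many of these genes.

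The 54 genes described here were taken from a list of autophagy genes, lysosomal enzymes and membrane proteins, V-ATPase subunits and the TFEB family, and all 54 were found among the 64252 gene identifiers of the count table by mapping Ensembl identifiers to symbols. The list used no measured value as its rule, but it was drawn up with earlier results of these data known. The question is how their transcripts differed after dBET1, a PROTAC degrader that brings BET bromodomain proteins to the ubiquitin ligase adaptor CRBN. The cells were labelled NB4, a promyelocytic leukemia line carrying the PML-RARa fusion, and were held for 24 h with 8 μM dBET1 (2 libraries) or with the same volume of its solvent DMSO (2 libraries). No genetic change separated the groups, and whether the libraries of a group came from separate cultures is not given in the sources used here, so p-values measure only the spread between these libraries, which may be technical.

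The libraries held 28019956 to 34685645 counts, and 17971 genes passed the filter on low counts. The neutrophil granule genes that define promyelocytes were at or near 0 (a list of 5, of which ELANE and CTSG were at 0 in each library, with sums of 17 and 15 counts in DMSO and 55 and 25 in dBET1), while all 10 erythroid markers were detected and summed to 5370 and 6499 CPM (counts relative to the library size, scaled by TMM factors) in DMSO and 3274 and 3232 CPM in dBET1. Of 5 myeloid markers, SPI1 was at 27.7 and 28.8 CPM and CD33 at 9.90 and 11.9 CPM in DMSO. CEBPA, CEBPE and CSF3R were at 0.153 to 2.135 CPM there. The granule and erythroid levels go against the label, so the cells are called the libraries labelled NB4. Of the erythroid markers, 8 of 10 passed the test as lower with dBET1. Of the 5 myeloid markers, CEBPA passed as higher (5 and 7 counts in DMSO, 58 and 54 in dBET1), SPI1 as lower, and 3 were not called. Of the granule genes 2 were tested, with MPO called higher (0 and 0 counts in DMSO, 22 and 10 in dBET1) and AZU1 not called. Of 5 monocyte and macrophage markers, 4 passed as higher (CD14, CSF1R, FCGR1A and MRC1) and LYZ as lower. The summed levels of these 5 were 19.2 and 18.1 CPM in DMSO and 18.1 and 17.1 CPM in dBET1. The 4 monocyte and macrophage markers called higher, CEBPA and MPO lay in the lowest tertile of mean abundance, where 35.5% of all genes were called higher. CSF1R had 3 and 4 counts in DMSO and 17 and 12 in dBET1. FCGR1A had 6 and 0 against 144 and 87, and MRC1 had 0 and 2 against 31 and 30. MPO, CEBPA, CSF1R, FCGR1A and MRC1 passed the filter on low counts through the dBET1 libraries, so a call as lower was hardly possible for them. The part of these marker shifts in the changes described here was not tested. In bulk RNA, a change in the number of cells of one kind and a change in RNA per cell cannot be told apart.

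Because TFEB family factors bind the E-box, the promoters of the members were searched for it. A match describes the letters only, and which factor binds them was not measured. The reference table held a window from 250 bases before to 50 bases after the transcript start (RefSeq, GRCh38.p14) for 43 of the 54 genes. Not matched were ATG4D, MAP1LC3A, BNIP3L, LAMP2, CTSB, HEXA, PSAP, ATP6V0E1, ATP6V1A, ATP6V1B2 and ATP6V1H. The E-box CACGTG reads the same on both strands, and the longer forms GTCACGTG and TCACGTGA, the first searched on both strands and the second its own reverse complement, contain it. CACGTG was present in 11 of 43 members (25.6%), against 12.5% of 10976 tested genes with a window and 8.77% of 27305 genes of the table with one. GTCACGTG was present in 8 members (18.6%) against 5.07% of tested genes, and TCACGTGA in 5 (11.6%) against 2.19%. Windows are shown for the members with CACGTG that passed the test as higher with dBET1, and for LAMP1, which holds the most copies. Each is written 5′ to 3′ on the strand of the gene, lies before the RefSeq start, and has the E-box in capitals. Alternative transcripts of CLCN7, CTSD, GAA and ATP6V0D1 start inside their windows.

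The pair of E-boxes of MCOLN1 lies at chr19:7522564-7522623 on the plus strand, that of GAA at chr17:80101491-80101556 on the plus strand, and that of CLCN7 at chr16:1475049-1475098 on the minus strand. The single E-boxes are from chr11:1763958-1763997 (CTSD, minus strand), chr16:67481178-67481237 (ATP6V0D1, minus strand), chr6:31862912-31862961 (NEU1, minus strand) and chr10:131982024-131982073 (BNIP3, minus strand). The LAMP1 stretch is chr13:113297039-113297108 on the plus strand and holds 4 of the 6 copies in its window.
MCOLN1: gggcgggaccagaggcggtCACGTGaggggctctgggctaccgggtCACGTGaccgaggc
GAA: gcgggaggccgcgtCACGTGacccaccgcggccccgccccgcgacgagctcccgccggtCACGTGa
CLCN7: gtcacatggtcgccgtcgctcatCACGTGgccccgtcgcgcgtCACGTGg
CTSD: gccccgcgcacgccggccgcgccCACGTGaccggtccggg
ATP6V0D1: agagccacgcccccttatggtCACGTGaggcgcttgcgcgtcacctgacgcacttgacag
NEU1: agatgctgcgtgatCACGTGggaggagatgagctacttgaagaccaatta
BNIP3: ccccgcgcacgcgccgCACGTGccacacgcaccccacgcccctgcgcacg
LAMP1: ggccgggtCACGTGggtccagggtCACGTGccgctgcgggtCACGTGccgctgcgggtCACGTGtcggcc

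Of the 54 genes, 52 passed the filter, and more of them were higher than lower after dBET1. ULK2, a kinase paralog of ULK1, had 1 and 0 counts in DMSO and 6 and 4 in dBET1, and MAP1LC3A, an LC3 gene, had 0 and 0 counts in DMSO and 8 and 2 in dBET1. Neither was tested. By the quasi-likelihood test of edgeR, with p-values adjusted after Benjamini and Hochberg over all tested genes and called under 0.05, 28 of the 52 (53.8%) were higher with dBET1, where 28% of all tested genes were called higher, and 9 (17.3%) were lower, where 27.6% of all tested genes were. The remaining 15 were not called. The members called lower numbered 4 with scaling by total counts only, 3 without dBET1 replicate 1 and 5 without dBET1 replicate 2. With the added limit of an absolute log2 fold change above 1, 12 members (23.1%) were higher against 16.9% of all tested genes, and 1 member (1.92%) was lower against 8.54%. Both dBET1 libraries lay above both DMSO libraries for 32 members (61.5%, against 41.9% of tested genes) and below them for 15 (28.8%, against 37.4%). The median log2 fold change of the 52 was 0.42, beside 0.05 over all tested genes. Summed over all 54 genes, the members held 3585 and 3687 CPM in DMSO and 5062 and 5104 CPM with dBET1. A large part of that difference came from PSAP (mean 442.6 CPM in DMSO, 902.8 in dBET1) and SQSTM1 (171.6 and 477.0).

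The share of genes called in each direction moved with abundance in these data, so the members were also set beside genes of like level, in tertiles of mean abundance. Of the 52, 34 lay in the highest tertile, where the median log2 fold change of all genes was -0.29. There the median of the members was 0.33, 19 were called higher (55.9% of 34, against 18.3% of all genes in that tertile) and 6 were called lower (17.6%, against 52.1%). Past the fold limit as well, 6 of these 34 were higher, where 2.82% of the genes of that tertile were, and 1 was lower, where 12% were. In the middle tertile, where the median of all genes was 0.05, the 17 members had a median of 0.46, with 9 called higher (52.9%, against 30.4%) and 2 called lower (11.8%, against 24.3%). Past the fold limit, 6 of the 17 were higher, where 13.9% of the genes of that tertile were, and 0 were lower, where 7.98% were. ATG9B was the member in the lowest tertile, where the median of all genes was 0.75, with 35.5% called higher and 6.28% called lower at the adjusted p, and 33.9% and 5.64% past the fold limit.

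**Figure D1:**
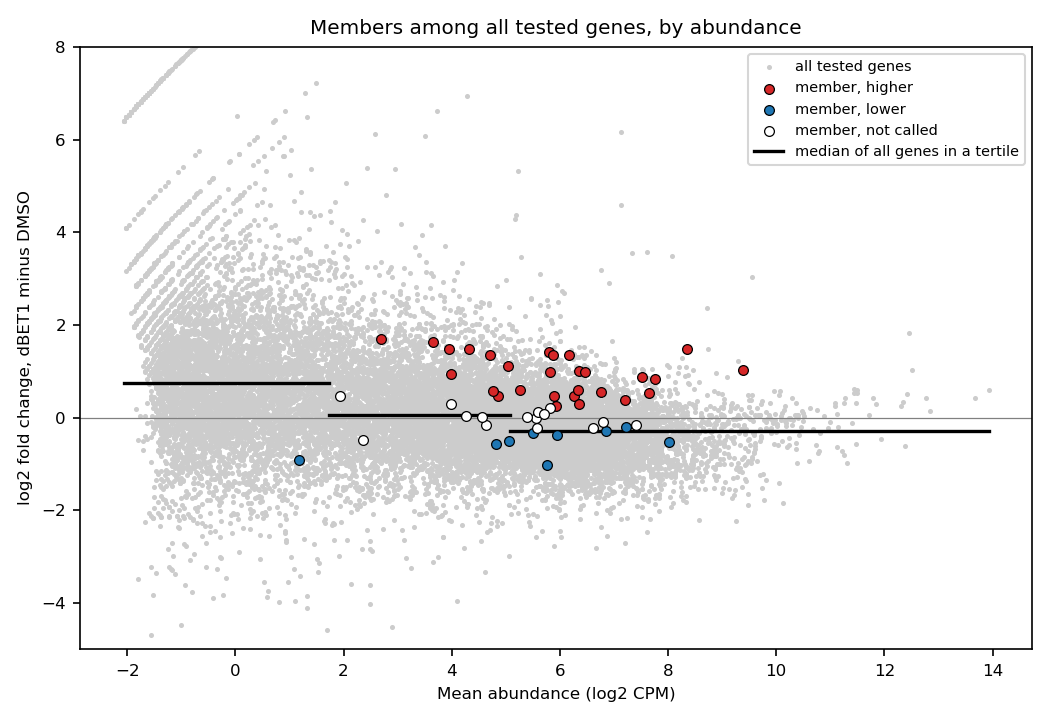
Each point is a gene, with mean abundance (log2 CPM) on the x axis and the log2 fold change (dBET1 minus DMSO) on the y axis: grey points are the 17971 tested genes, coloured points the members (red higher, blue lower, white not called) and black lines the median of all genes in each tertile of abundance. The 34 members in the highest tertile had a median of 0.33 where the line of all genes is at -0.29. The y axis runs from -5 to 8, and 43 genes lie outside it.

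Of the 3 TFEB family transcription factors, 1 was called. TFE3 (chrX:49028726-49043410) was at 27.5 and 33.6 CPM in DMSO and 47.05 and 44.5 CPM in dBET1 (log2 fold change 0.58 ± 0.12 SE, edgeR adjusted p = 0.00418). TFEB (chr6:41683978-41736259) was the least abundant of the family, at 2.85 and 3.49 CPM in DMSO and 4.67 and 4.06 CPM in dBET1 (log2 fold change 0.46 ± 0.24, edgeR adjusted p = 0.141). MITF (chr3:69739456-69968336) was at 26.8 and 25.6 CPM in DMSO and 22.2 and 24.9 CPM in dBET1 (log2 fold change -0.16 ± 0.12, edgeR adjusted p = 0.286), and its sign turned to 0.05 with scaling by total counts only. The groups did not overlap for any of these genes, but the gap was within the fitted spread for TFEB and MITF. Of all tested genes, 41.9% had both dBET1 libraries above both DMSO libraries and 37.4% below. Scaled by total counts alone, TFEB was also called higher, with a log2 fold change of 0.67. Per kb of exon, the levels in DMSO were 7.26 CPM per kb for TFE3, 3.53 for MITF and 0.47 for TFEB.

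Among the genes that start an autophagosome, 3 of 4 tested members were called higher with dBET1, beside 28% of all tested genes. ULK1 (chr12:131894622-131923150), the kinase at the head of the pathway, was at 28.2 and 32.4 CPM in DMSO and 74.8 and 86.9 CPM in dBET1 (log2 fold change 1.42 ± 0.11, edgeR adjusted p = 4.97e-05). Both dBET1 libraries held well above the DMSO libraries, a 2.67-fold difference of the means. ATG13, the partner that ULK1 needs for activity, rose by a log2 fold change of 0.97 ± 0.10 (edgeR adjusted p = 0.000144), just under the limit of 1. BECN1, encoding beclin 1 of the lipid kinase complex, had a log2 fold change of 0.26 ± 0.09 and an edgeR adjusted p of 0.0483. That call was lost in 7 of the 11 alternative fits, among them the replicate block and the fits that left out DMSO replicate 1 or 1 of the dBET1 libraries. ATG14, the subunit that directs that complex to autophagy, was not called (log2 fold change 0.29 ± 0.15, edgeR adjusted p = 0.129), and 20.8% of its exon bases are shared with FBXO34 on the opposite strand.

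The 6 phagophore membrane genes moved both ways. ATG2A (chr11:64894546-64917209), a lipid transfer protein that feeds the growing membrane, was at 51.2 and 57.7 CPM in DMSO and at 104.9 and 112.9 CPM in dBET1 (log2 fold change 1.00 ± 0.09, edgeR adjusted p = 9.56e-05). WIPI2, which recruits the conjugation machinery, rose by 0.53 ± 0.07 on the log2 scale (edgeR adjusted p = 0.000593). ATG9A, the scramblase of the vesicles that seed the membrane, fell by 0.30 ± 0.08 on the log2 scale (edgeR adjusted p = 0.0131). Its paralog ATG9B was lower by the same test from a low level, with 37 to 113 counts in a library (log2 fold change -0.92 ± 0.34, edgeR adjusted p = 0.0494). That call was lost in 8 of the 11 alternative fits, the replicate block and the fits without DMSO replicate 1 or dBET1 replicate 1 among them, and the value ran from -1.23 to -0.61 with 1 library left out. ATG9B shares 12.3% of its exon bases with NOS3 on the opposite strand, which had 1145 to 1564 counts and was also lower (log2 fold change -0.40 ± 0.10, edgeR adjusted p = 0.0087). The ATG9A call was lost with either dBET1 library left out and with scaling by total counts only. WIPI1 and VMP1, an endoplasmic reticulum protein needed early in the pathway, were not called, with log2 fold changes of -0.48 ± 0.20 and -0.09 ± 0.07, and the VMP1 value turned to 0.12 with total counts only.

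Of the 6 conjugation enzymes, 5 were not called. ATG5, ATG7 and ATG12, which make up the core of the ubiquitin-like system, had log2 fold changes of -0.01 ± 0.09, 0.01 ± 0.11 and 0.12 ± 0.09. The proteases that process ATG8 proteins, ATG4A and ATG4D, had log2 fold changes of 0.03 ± 0.12 and -0.22 ± 0.11. The signs of ATG4A, ATG5 and ATG7 changed between scalings or filters. ATG16L1, which places the conjugation complex on the membrane, was the member called, and fell by 0.58 ± 0.11 on the log2 scale (edgeR adjusted p = 0.00328). Summed, the 6 genes were at 217.3 and 225.0 CPM in DMSO and 204.4 and 210.0 CPM in dBET1.

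Of the ATG8 genes, 3 of 4 tested members were called higher, beside 28% of all tested genes. GABARAPL1 (chr12:10212458-10223128) was at 6.04 and 6.16 CPM in DMSO and 18.1 and 19.6 CPM in dBET1 (log2 fold change 1.63 ± 0.15, edgeR adjusted p = 9.16e-05). MAP1LC3B (chr16:87383953-87404779), the LC3 gene used most widely as an autophagosome marker, was at 56.9 and 60.6 CPM in DMSO and 115.4 and 117.7 CPM in dBET1 (log2 fold change 0.99 ± 0.08, edgeR adjusted p = 5.39e-05). Both genes had replicates close together and groups far apart. GABARAP (chr17:7240008-7242449) was at 50.2 and 49.8 CPM in DMSO and 69.6 and 69.0 CPM in dBET1 (log2 fold change 0.47 ± 0.08, edgeR adjusted p = 0.00204). GABARAPL2 (chr16:75566375-75577881) was at 49.2 and 54.9 CPM in DMSO and 60.7 and 59.6 CPM in dBET1, without overlap, and was not called (log2 fold change 0.21 ± 0.09, edgeR adjusted p = 0.089). Since the members changed to different degrees, the makeup of the family differed between the groups. Per length, MAP1LC3B gave 20.6% and 21% of the family in DMSO and 27.5% and 28.02% in dBET1, and GABARAPL1 gave 2.72% and 2.65% against 5.34% and 5.80%. GABARAP remained the most abundant per length, at 46.9% and 44.5% in DMSO and 42.7% and 42.4% in dBET1. GABARAPL2 was at 29.8% and 31.8% against 24.2% and 23.8%. In CPM not divided by length, MAP1LC3B was above GABARAP in each library. These shares depend on the exon length used.

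All 5 cargo receptors were higher with dBET1, 4 of them past both thresholds. Over all tested genes, 28% were called higher and 16.9% were higher past both thresholds. SQSTM1, NBR1 and BNIP3L lay in the highest tertile of abundance, where these shares were 18.3% and 2.82%. OPTN and BNIP3 lay in the middle one, where they were 30.4% and 13.9%. SQSTM1 (chr5:179806398-179838078), which encodes p62, the receptor for ubiquitinated protein aggregates, was at 165.1 and 178.2 CPM in DMSO and 480.0 and 474.0 CPM in dBET1 (log2 fold change 1.47 ± 0.07, edgeR adjusted p = 1.06e-05). NBR1 (chr17:43170481-43211689), a partner of p62 with a like domain plan, was at 43.4 and 37.3 CPM in DMSO and 106.1 and 100.7 CPM in dBET1 (log2 fold change 1.36 ± 0.10, edgeR adjusted p = 3.50e-05). In both genes every dBET1 library was more than 2-fold above every DMSO library. OPTN (chr10:13099449-13138308), the receptor optineurin for damaged mitochondria and bacteria, was low at 3.06 and 2.95 CPM in DMSO and reached 9.56 and 9.99 CPM in dBET1 (log2 fold change 1.70 ± 0.19, edgeR adjusted p = 0.000246). BNIP3L, a receptor on the outer mitochondrial membrane that clears mitochondria from maturing red cells, was at 34.5 and 31.3 CPM in DMSO and 85.5 and 82.3 CPM in dBET1 (log2 fold change 1.35 ± 0.09, edgeR adjusted p = 2.66e-05). Its paralog BNIP3 rose by 0.46 ± 0.11 on the log2 scale (edgeR adjusted p = 0.00758), a call that was lost with either dBET1 library left out. In the fit of all 4 libraries OPTN had the largest log2 fold change of the 52 members. The family of 5 summed to 271.4 and 272.7 CPM in DMSO and 714.3 and 700.7 CPM in dBET1. SQSTM1 shares 21% of its exon bases with MRNIP on the opposite strand, which was also higher (log2 fold change 1.29 ± 0.08, edgeR adjusted p = 2.11e-05), and no strand setting of the counting is given.

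Both fusion factors were called higher, beside 28% of all tested genes. TECPR1 (chr7:98214624-98252232), a tether between autophagosome and lysosome, was at 10.1 and 11.03 CPM in DMSO and 30.4 and 28.4 CPM in dBET1 (log2 fold change 1.48 ± 0.13, edgeR adjusted p = 6.58e-05). PLEKHM1, an adaptor that links RAB7 and ATG8 proteins on the lysosome, rose by 0.94 ± 0.13 on the log2 scale (edgeR adjusted p = 0.000731). Neither gene had overlapping groups, and 41.9% of all tested genes likewise had dBET1 above DMSO without overlap.

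**Figure D2:**
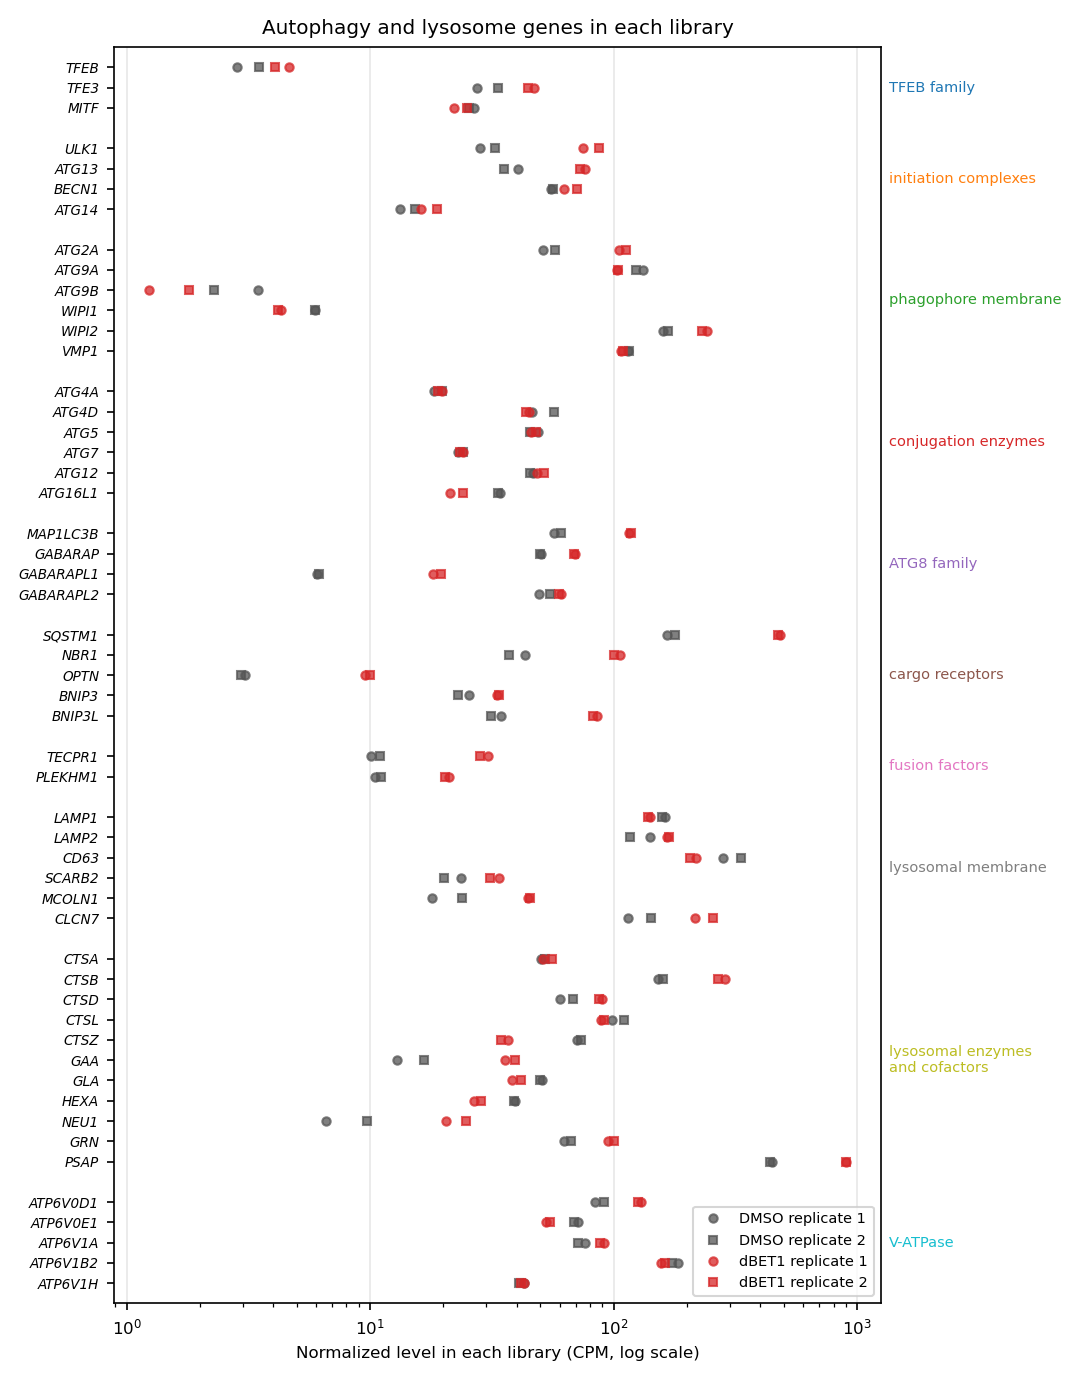
The level of each of the 52 tested members is shown in CPM on a log x axis, by role on the y axis, with 1 point for each of the 4 libraries (grey DMSO, red dBET1, circles replicate 1, squares replicate 2). The cargo receptors and fusion factors have the red points to the right of the grey ones in each gene, while the points of ATG4A, ATG5, ATG7, CTSA and ATP6V1H overlap.

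Of 6 lysosomal membrane genes, 4 rose and 2 fell, where 28% of all tested genes were called higher and 27.6% lower. MCOLN1 (chr19:7522624-7534009), the calcium channel mucolipin 1 whose promoter carries the pair of E-boxes above, was at 18.0 and 23.8 CPM in DMSO and 44.5 and 45.3 CPM in dBET1 (log2 fold change 1.11 ± 0.14, edgeR adjusted p = 0.00041). CLCN7, the chloride-proton exchanger of the lysosome, rose by 0.88 ± 0.12 (edgeR adjusted p = 0.000718), SCARB2, the receptor that carries glucocerebrosidase, by 0.57 ± 0.12 (edgeR adjusted p = 0.00527), and LAMP2 by 0.38 ± 0.10 (edgeR adjusted p = 0.0129), all on the log2 scale. CD63, a tetraspanin of late endosomes, was at 282.2 and 332.0 CPM in DMSO and 217.3 and 206.3 CPM in dBET1 and fell by 0.54 ± 0.09 on the log2 scale (edgeR adjusted p = 0.00187). LAMP1, with LAMP2 the most abundant protein of the lysosomal membrane, was at 162.4 and 158.1 CPM in DMSO and 140.6 and 138.3 CPM in dBET1 (log2 fold change -0.20 ± 0.07, edgeR adjusted p = 0.0446), and this turned to 0.01 with total counts only. The LAMP1 call was lost in 6 of the 11 alternative fits, among them the replicate block and those that left out 1 of the dBET1 libraries, and the LAMP2 call in 3, without a filter on low counts and with either dBET1 library left out. The SCARB2 call was lost without dBET1 replicate 1.

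Of 11 lysosomal enzymes and cofactors, 6 rose and 3 fell, where 28% of all tested genes were called higher and 27.6% lower. PSAP (chr10:71816298-71851251), the precursor of the saposins that present sphingolipids to their hydrolases, was the member with the most counts, at 447.6 and 437.5 CPM in DMSO and 903.1 and 902.6 CPM in dBET1 (log2 fold change 1.03 ± 0.07, edgeR adjusted p = 2.09e-05). GAA (chr17:80101533-80119881), the acid glucosidase that breaks down glycogen, was at 12.9 and 16.6 CPM in DMSO and 35.8 and 39.5 CPM in dBET1 (log2 fold change 1.35 ± 0.15, edgeR adjusted p = 0.000186). NEU1 (chr6:31857659-31862905), the lysosomal sialidase, was at 6.62 and 9.71 CPM in DMSO and 20.4 and 24.7 CPM in dBET1 (log2 fold change 1.47 ± 0.21, edgeR adjusted p = 0.000683). The NEU1 groups did not overlap, with dBET1 above DMSO, as was so for 41.9% of all tested genes. NEU1 lies in the major histocompatibility complex, where identifiers of alternative haplotypes can hold part of the reads. The proteases CTSB (0.83 ± 0.08, edgeR adjusted p = 8.27e-05) and CTSD (0.46 ± 0.09, edgeR adjusted p = 0.0037) and the progranulin gene GRN (0.58 ± 0.08, edgeR adjusted p = 0.000826) also rose, by these log2 fold changes.

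CTSZ (chr20:58985686-59008238), a carboxypeptidase, was the member past both thresholds as lower, at 71.0 and 73.2 CPM in DMSO and 36.8 and 34.6 CPM in dBET1 (log2 fold change -1.02 ± 0.09, edgeR adjusted p = 6.85e-05). Its size was just over the fold limit and fell under it in 4 of the 11 alternative fits, where it was still called at the adjusted p. CTSZ shares 31.6% of its exon bases with NELFCD on the opposite strand, a subunit of the elongation factor NELF, which was lower by nearly the same amount (log2 fold change -1.03 ± 0.08, edgeR adjusted p = 4.89e-05). Without a stated strand setting, reads of the pair cannot be told apart. HEXA and GLA, hydrolases of gangliosides and of globotriaosylceramide, fell by 0.50 ± 0.10 (edgeR adjusted p = 0.00357) and 0.34 ± 0.09 (edgeR adjusted p = 0.0162) on the log2 scale. The GLA call was lost with either dBET1 library left out and with scaling by total counts only. The HEXA call was lost without dBET1 replicate 1. HEXA shares 13.2% of its exon bases with a long noncoding RNA gene on the opposite strand. That gene had 19 to 74 counts and was also lower (log2 fold change -1.57 ± 0.36, edgeR adjusted p = 0.00757). GLA shares 8.99% with RPL36A on the opposite strand, which had 16736 to 19510 counts and was not called (log2 fold change -0.04 ± 0.07). CTSA and CTSL were not called, with log2 fold changes of 0.07 ± 0.09 and -0.22 ± 0.09.

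**Figure D3:**
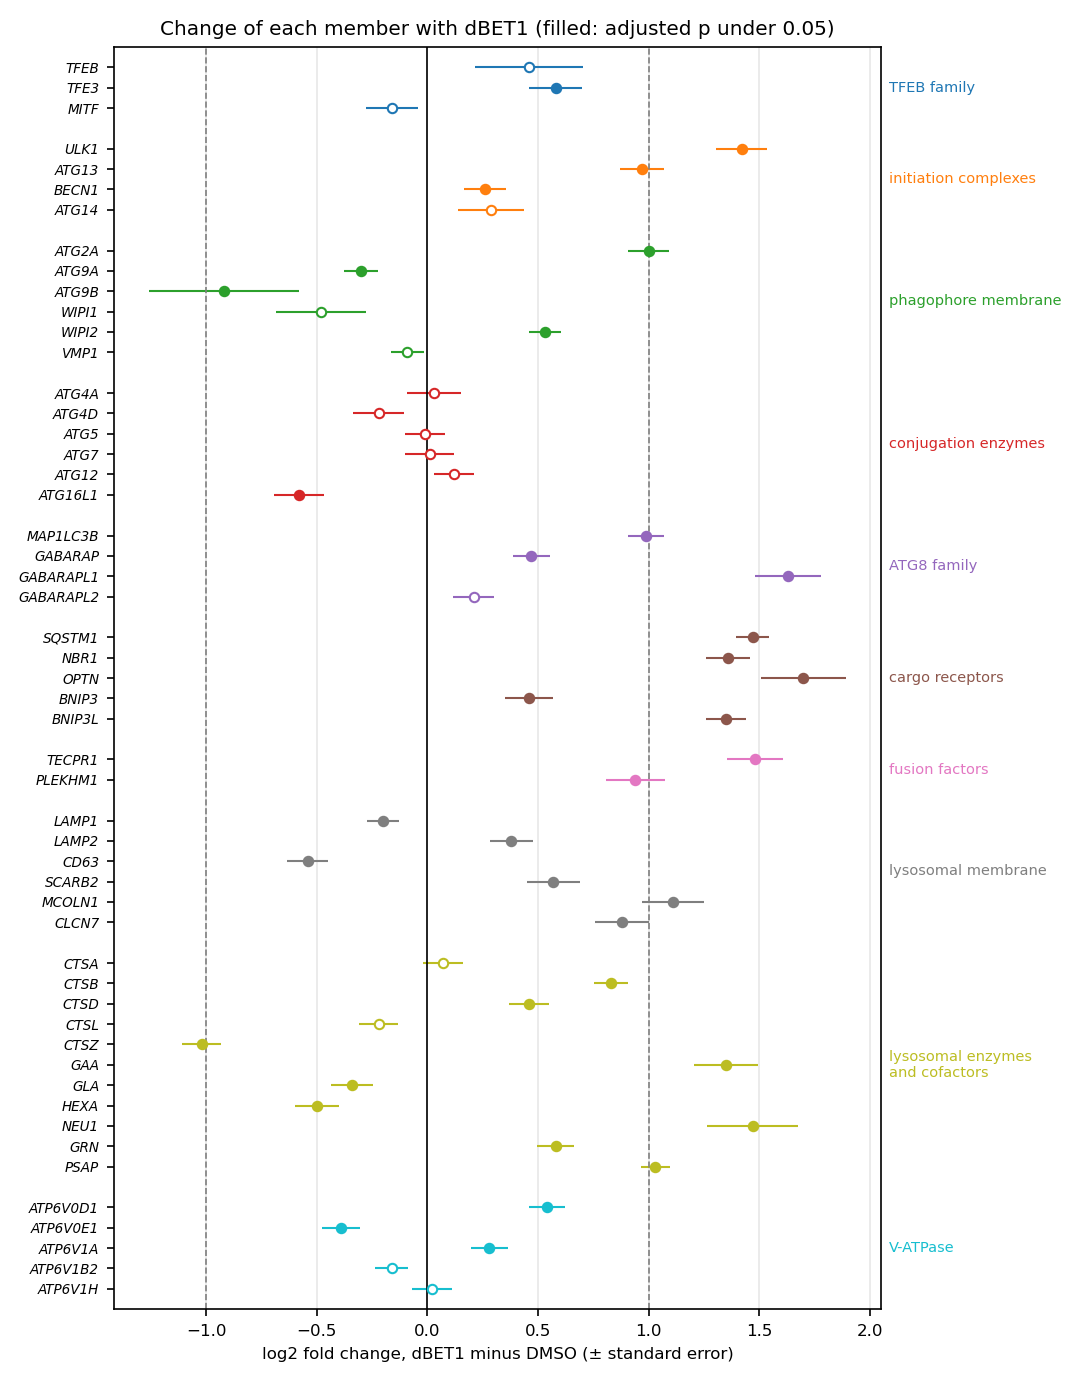
Each point is the log2 fold change (dBET1 minus DMSO, x axis) of a tested member, with its standard error as the bar, by role on the y axis. Filled points passed an adjusted p of 0.05, and dashed lines mark log2 fold changes of -1 and 1. The 5 cargo receptors lie between 0.46 and 1.70, and the 6 conjugation enzymes between -0.58 and 0.12.

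Of the 5 V-ATPase subunits among the members, 2 rose and 1 fell. ATP6V0D1, of the membrane sector, rose by 0.54 ± 0.08 on the log2 scale (edgeR adjusted p = 0.000985), and ATP6V1A, the catalytic subunit, by 0.28 ± 0.08 (edgeR adjusted p = 0.0207). ATP6V0E1 fell by 0.39 ± 0.08 (edgeR adjusted p = 0.00567). The calls of ATP6V1A and ATP6V0E1 were lost with either dBET1 library left out. That of ATP6V1A was also lost with DESeq2 and without a filter on low counts, and that of ATP6V0E1 with total counts only. ATP6V1B2 and ATP6V1H were not called (log2 fold changes -0.16 ± 0.07 and 0.02 ± 0.09), and the signs of both depended on the scaling or the filter. Taken with the other V-ATPase genes, 20 of 22 were tested, 5 were called higher and 5 lower, shares near those of all tested genes (28% and 27.6%), and 0 passed the fold limit in either direction. Most of the tested ones lay in the highest tertile of abundance, where 18.3% of all genes were called higher and 52.1% lower. Of 8 genes of the membrane sector V0, 4 were called higher and 2 lower, and of 10 tested genes of the catalytic sector V1, 1 was called higher and 3 lower. The summed level of all 22 was 1790 and 1859 CPM in DMSO and 1772 and 1777 CPM in dBET1.

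Members with and without the E-box had the same median change. The 11 members with CACGTG had 7 called higher, 2 called lower (LAMP1 and CD63) and 2 not called (ATG14 and CTSA), with a median log2 fold change of 0.46. Neither set was tested against the other. The 31 tested members with a window and without CACGTG had 16 called higher, 5 called lower and 10 not called, also with a median of 0.46. Over all tested genes, 28% were called higher and 27.6% lower. Of the 11 with the E-box, MCOLN1, GAA, CLCN7 and CTSA had 2 copies. ULK1, GABARAPL1, SQSTM1, NBR1, OPTN, TECPR1 and ATG2A, all past both thresholds, had none in this window, which says only that these letters are not in it.

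**Figure D4:**
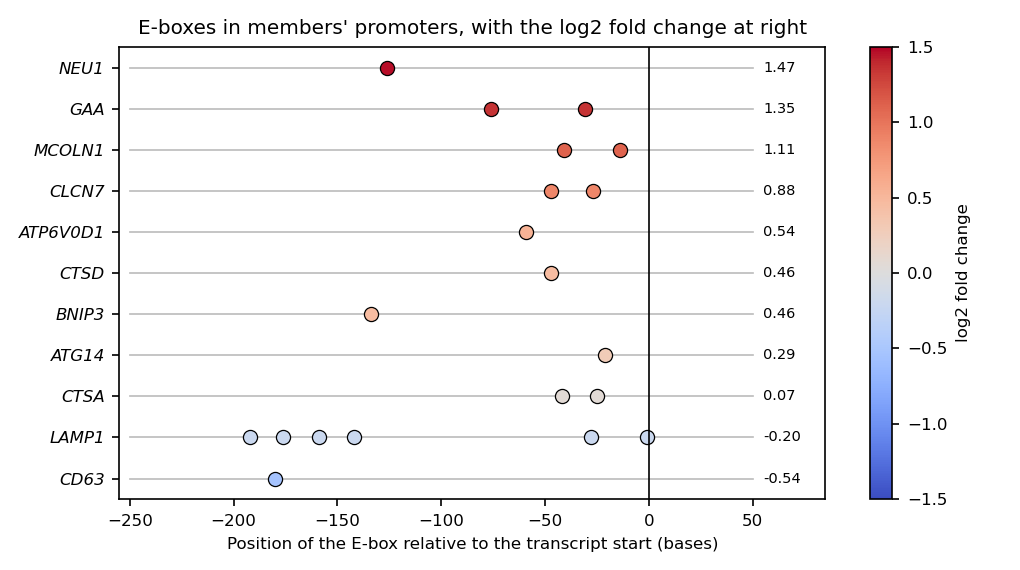
Each point is a copy of the E-box, at its first base relative to the transcript start (x axis, bases), in the 11 member promoters that hold it, ordered by log2 fold change, which is printed at right and given by colour. LAMP1 has 6 copies and a log2 fold change of -0.20, while NEU1 has 1 copy and a log2 fold change of 1.47.

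Beside the members, 140 other genes of the pathway were counted from a second list that was also written with earlier results known. Of these, 132 were tested, 67 (50.8%) were called higher, against 28% of all tested genes, and 29 (22%) lower, against 27.6%, with a median log2 fold change of 0.32. Past both thresholds were 29 higher (22%, against 16.9%) and 6 lower (4.55%, against 8.54%). The 29 include CTSO, WDFY3, LGMN, CTSK, CTSV and ACP5 of the lowest tertile, where 33.9% of all genes were higher past both. CTSO, WDFY3 and CTSK would not have passed the filter on low counts without the dBET1 libraries, so a call as lower was hardly possible for them. CTSK had 8 and 35 counts in DMSO and 81 and 126 in dBET1. The 34 tested lysosomal enzymes outside the member list had the highest median, 0.61, with 22 called higher and 4 lower, and the 15 other V-ATPase genes the lowest, -0.14, with 3 higher and 4 lower. Of the 6 genes of this list with the largest log2 fold changes, SGSH, the sulfamidase of heparan sulfate breakdown, was at 10.1 and 11.1 CPM in DMSO and 54.2 and 57.3 CPM in dBET1 (log2 fold change 2.40 ± 0.11, edgeR adjusted p = 8.00e-06). LGMN, the protease legumain, was at 0.74 and 0.57 CPM in DMSO and 5.30 and 3.18 CPM in dBET1. ATG16L2, a paralog of the ATG16L1 gene that fell, was at 5.46 and 8.26 CPM in DMSO and 30.9 and 42.0 CPM in dBET1. SESN3, a sestrin that restrains mTORC1, was at 5.82 and 4.56 CPM in DMSO and 27.0 and 24.7 CPM in dBET1. CTSO had 2 and 0 counts in DMSO and 11 and 21 in dBET1, and WDFY3, the adaptor ALFY for aggregates, 7 and 2 counts in DMSO and 26 and 20 in dBET1, so no fold is given for this pair. Lower past both thresholds were ATG3, VAMP8, CTSS, LAPTM5, CD68 and LAMTOR4. ATG3, the conjugating enzyme that hands ATG8 proteins to lipid, fell by 1.04 on the log2 scale. MYC, a transcription factor known to act against the pathway, was at 444.8 and 464.9 CPM in DMSO and 278.0 and 269.1 CPM in dBET1 (log2 fold change -0.73 ± 0.07, edgeR adjusted p = 0.0001015).

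**Figure D5:**
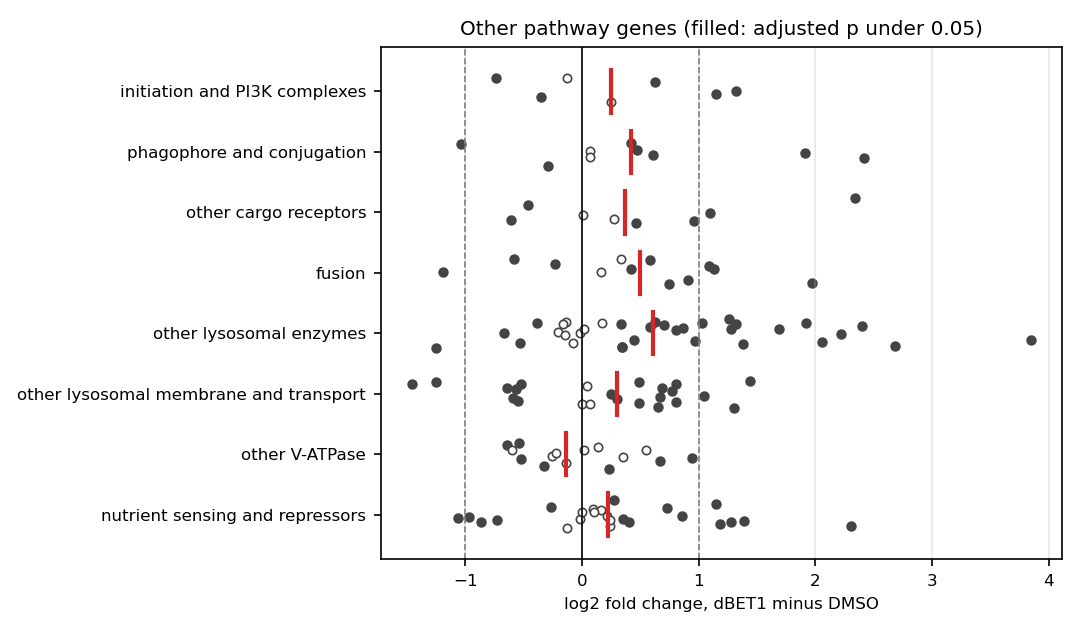
Each point is the log2 fold change (dBET1 minus DMSO, x axis) of 1 of the 132 other tested pathway genes, by role on the y axis. Filled points passed an adjusted p of 0.05, red bars are the median of each role, dashed lines mark -1 and 1, and vertical scatter within a role has no meaning. The median is highest for lysosomal enzymes (0.61) and lowest for V-ATPase genes (-0.14).

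Levels of different members were compared per kb of exon. PSAP led in both groups, at 142.1 CPM per kb in DMSO and 289.8 in dBET1, followed by CD63 at 126.8 and 87.4. SQSTM1 was in place 8 of the 54 in DMSO (22.8 CPM per kb) and in place 3 in dBET1 (63.3), and BNIP3L was in place 26 (7.92) and 14 (20.2). ATG9A was in place 5 in DMSO (27.0) and 12 in dBET1 (21.98). At the other end, ULK2, MAP1LC3A, ATG9B and TFEB held the last 4 places in both groups. Places depend on the length used, and differences between neighbours in the order were not tested.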

How the data were processed

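Total RNA of 4 libraries (2 dBET1, 2 DMSO) was sequenced as paired-end reads. The labels name TRIzol extraction and a TruSeq kit, while the paper names another extraction kit. The authors aligned reads to hg38 with HISAT2 2.2.0, estimated abundances with StringTie and deposited the counts as whole numbers for each gene, not normalized. The step from abundances to counts and its strand setting are not given in the sources used here. The control columns carry the name NC and were taken as DMSO by time and replicate number.

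GENCODE 44 gave symbols and coordinates for 56105 of 64252 identifiers. The members and lists were chosen with earlier results of these data known. Members were named by role, with values per library for those past both thresholds and for the TFEB and ATG8 families, and of other pathway genes the 6 with the largest change and MYC. The rule also covers an item that is not reported here.

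Counts were analysed with edgeR 4.0.16 (R 4.3.3): filterByExpr, TMM factors (0.918 to 1.08), and the quasi-likelihood test with the group alone, adjusted by Benjamini-Hochberg over 17971 genes. Calls used an adjusted p under 0.05, alone or with an absolute log2 fold change above 1, the thresholds of the paper, which used DESeq2. The standard error is the log2 fold change over the square root of F. CPM are on the TMM scale. Totals of 28019956 to 34685645 counts left replicate differences above counting error (chi-square per degree of freedom 23.6 for DMSO and 8.14 for dBET1), so no library was a copy of another. The edgeR step was tested on simulated counts of 17742 genes, with 100 changed by an absolute log2 fold change of 2 and 100 by 1. Of these, 100% and 87% were called, and 1 unchanged gene was. The changed genes were drawn only from those above a minimum mean count, and all genes and both groups had the same dispersion. These shares therefore do not cover genes with low counts or groups of unequal spread. Far fewer genes changed there than were called in the data, so it does not test the choice of scaling. Alternatives were DESeq2 1.42.0, its size factors, total counts, other filters, a replicate block, each library left out and counts divided by 2, since genes with 1 and 2 counts were nearly as frequent as each other (2426 and 2028 genes in DMSO replicate 1, against 1016 with 3 counts).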

Additional observations from a re-analysis of the deposited data

How the results depend on the processing

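With 2 libraries in each group, limits are wide: leaving 1 out leaves a lone library that is assumed to vary like the other group. Of the 28 members called higher, 23 were called higher in all 12 fits (the main one and 11 alternatives), and BECN1, BNIP3, LAMP2, SCARB2 and ATP6V1A were not. Of the 9 called lower, ATG16L1, CD63 and CTSZ were called in all 12. Of the 12 higher past both thresholds, 9 stayed so in all 12, with ATG2A, MCOLN1 and PSAP the exceptions, and CTSZ did not. Scaling by total counts alone moved the median of all genes from 0.05 to 0.26 and that of the members from 0.42 to 0.63, left 4 members lower at the adjusted p and 0 past both thresholds, and turned MITF to 0.05, VMP1 to 0.12, ATG5 to 0.20, LAMP1 to 0.01 and ATP6V1B2 to 0.05. Members lower past both thresholds also numbered 0 with at least 10 counts in every library and with counts divided by 2, by which ATG5 turned to 0.07 and 0.03. DESeq2 gave ATG4A -0.01, ATG7 -0.02 and ATP6V1H -0.02, its size factors in edgeR gave ATG7 0.00, and the fit with no filter gave ATG4A -0.03, ATG7 -0.04 and ATP6V1H -0.04. None of these sign changes held a called value except that of LAMP1. The cause of these moves was not tested beyond the scaling and filters themselves.

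Members higher past both thresholds numbered 10 to 17 under the 7 alternatives that kept all libraries, and 11 to 13 with 1 left out. Members higher at the adjusted p numbered 25 to 33, and 23 to 29 with 1 left out. With 1 library left out, members lower numbered 3 to 10, with 3 without dBET1 replicate 1 and 5 without dBET1 replicate 2, those lower past both thresholds 1 to 2, with 2 without DMSO replicate 2, and the median ran from 0.33 to 0.40. Lost without dBET1 replicate 1 were the calls of BECN1, ATG9A, ATG9B, BNIP3, LAMP1, LAMP2, SCARB2, GLA, HEXA, ATP6V0E1 and ATP6V1A, without dBET1 replicate 2 those of BECN1, ATG9A, BNIP3, LAMP1, LAMP2, GLA, ATP6V0E1 and ATP6V1A, and without DMSO replicate 1 those of BECN1 and ATG9B. The fold limit was missed by ATG2A (0.89) and MCOLN1 (0.89) without DMSO replicate 1, by ATG2A (0.93) and CTSZ (-0.99) without dBET1 replicate 2 and by PSAP (0.98) without DMSO replicate 2. The other pathway genes ran from 46 to 70 higher and 22 to 33 lower. Signs then changed for ATG4A (-0.06 to 0.05), ATG5 (-0.09 to 0.02), ATG7 (-0.05 to 0.02), ATP6V1H (-0.05 to 0.03) and CTSA (-0.01 to 0.12). Replicate numbers did not pair the libraries (correlation of deviations -0.0075), and with the replicate block 12 members stayed higher past both thresholds, while BECN1, ATG9B and LAMP1 lost their call. With the longest transcript as length, the median level in DMSO moved from 7.11 to 9.40 CPM per kb, and with all promoters as the comparison CACGTG was in 8.77% in place of 12.5%.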
